A study of Mus musculus with 20 samples.

Results

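The genes described here are 10 that are used as markers of adipocytes, the fat-storing cells: Cfd, Retn, Adipoq, Hp, Plin1, Plin4, Cidec, Lipe, Fabp4 and Car3. They were measured by bulk RNA sequencing of polyA RNA from mouse small intestine, and are 10 of 55487 genes in the table. They were chosen by name from a list, and the list was drawn up because the levels of Cfd, Retn and Adipoq differed between pups of the 2 kinds of dam in opposite directions at the 2 ages. The 20 libraries are of 7-week pups of dams with periodontitis, 7-week pups of control dams, 2-week pups of dams with periodontitis and 2-week pups of control dams, with 5 libraries in each group. Periodontitis is an inflammation of the tissue that holds the teeth, and the series compares gene expression in offspring of mothers with and without it. It was a condition of the dams, and the labels record no treatment of the pups. The labels do not give the mouse strain, the litter, the sex, the segment of intestine or the number of dams, nor how periodontitis was brought about. Spread between libraries may therefore be partly technical or shared by litter mates, and p-values measure only the spread between these libraries. Below, pups of dams with periodontitis are called periodontitis pups.

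White adipocytes store triglyceride in 1 large lipid droplet and release it as fatty acids when energy is needed. Proteins on the droplet surface, such as perilipins and CIDE proteins, control how the droplet grows and when lipases reach it. The same cells secrete hormones and other proteins into the blood, among them adiponectin, resistin and adipsin. Around the intestine, fat lies in the mesentery, which is attached to the outer wall of the gut. Enterocytes, the absorptive cells of the gut lining, also form lipid droplets after a fatty meal and share part of this machinery.

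The 3 hormone genes that gave rise to the list are shown first by the 250 bases before their transcription start. The sequences are from RefSeq on GRCm38.p6, all 3 genes lie on the plus strand, and the windows are chr10:79890603-79890852 for Cfd, chr8:3655520-3655769 for Retn and chr16:23146286-23146535 for Adipoq. Capitals mark the letters CANNTG, the E-box, which reads alike on both strands.
Cfd: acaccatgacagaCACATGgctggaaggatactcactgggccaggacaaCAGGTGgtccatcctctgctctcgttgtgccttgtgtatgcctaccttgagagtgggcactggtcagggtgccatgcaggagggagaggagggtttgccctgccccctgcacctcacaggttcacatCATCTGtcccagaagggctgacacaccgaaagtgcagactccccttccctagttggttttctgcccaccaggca
Retn: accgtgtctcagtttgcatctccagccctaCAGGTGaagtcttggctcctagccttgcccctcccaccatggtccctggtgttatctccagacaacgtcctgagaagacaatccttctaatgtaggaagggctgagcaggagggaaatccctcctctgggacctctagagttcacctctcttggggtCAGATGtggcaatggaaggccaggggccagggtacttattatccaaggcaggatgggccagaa
Adipoq: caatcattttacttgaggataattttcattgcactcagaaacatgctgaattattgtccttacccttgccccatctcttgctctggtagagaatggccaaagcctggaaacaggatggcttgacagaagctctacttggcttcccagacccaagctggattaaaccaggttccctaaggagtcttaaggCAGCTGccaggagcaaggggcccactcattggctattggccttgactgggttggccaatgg
The Cfd window held 3 E-boxes, which begin 237, 201 and 74 bases before the start. The Retn window held 2, at 220 and 63 bases, and the Adipoq window 1, at 61 bases. Of all 32851 RefSeq promoters, 66.2% hold at least 1 in the same 250 bases, so the letters are common. The Adipoq window also held CCAAT, searched on both strands, 3 times, with 33.8% of all promoters holding it. It held TTNCNNAA, the core of a C/EBP-type site, once, with 36.8% of all promoters holding it. TATAAA, searched on both strands and held by 12.4% of all promoters, was not found in the 3 windows. On GRCm38 (GENCODE M21) the other genes lie on the minus strand, Hp at chr8:109575128-109579172, Plin1 at chr7:79720218-79732903, Plin4 at chr17:56100591-56109803, Cidec at chr6:113424634-113435760, Lipe at chr7:25379527-25398710 and Fabp4 at chr3:10204088-10208576, except Car3 at chr3:14863512-14872523 on the plus strand. Promoter entries were matched for 7 of the 10 genes. A match of letters is a description of the sequence and was not tied to any measurement here.

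Each library held between 14.9 and 42.6 mega counts (M), and the shallowest was library 5 of the 2-week control pups. Values are counts per M (CPM) with library sizes scaled by the trimmed mean of M values, and 1 count equals 0.0171 to 0.0805 CPM. Library 5 of the 2-week control pups stood apart, with 29.4% mitochondrial counts against 3.99% to 9.15% in the other 19, and 522 CPM of Dcn, the decorin of connective tissue, against 101 to 127 CPM in the rest of its group. Library 5 of the 7-week periodontitis pups had an intestinal epithelium marker sum of 7772 CPM, against 13836 to 15722 CPM in the other 4 of its group. Fold changes of the 10 genes between dams are given with and without these 2 libraries.

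The label was checked against the data first. Adipoq and Plin1, both close to restricted to adipocytes, were low everywhere. Each was at 0 counts in library 5 of the 7-week periodontitis pups and in library 2 of the 7-week control pups, where 3 counts would be 0.0868 and 0.147 CPM. In those same 2 libraries Cidec stood at 94.7 and 339 CPM, Lipe at 114 and 194 CPM, and Fabp4 at 14.6 and 8.73 CPM. Cidec, Lipe and Fabp4 were thus measured at these levels where Adipoq and Plin1 were not. Cfd, Retn, Hp, Plin1 and Car3 varied together with Adipoq over the libraries. Plin4, Cidec, Lipe and Fabp4 had Pearson r of 0.04, 0.12, 0.22 and 0.21 with Adipoq. Over all libraries the adipocyte label thus goes against the data for these 4. After removal of the group means r with Adipoq was 0.49 for Cidec and for Lipe, 0.09 for Plin4 and 0.26 for Fabp4. For Cidec and Lipe the division from the other genes was therefore less sharp within groups. That division was made after the values were seen. In bulk tissue, fewer cells of a type and less RNA per cell cannot be told apart.

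RNA of Cfd, Adipoq, Retn and Hp, which encode secreted proteins, was higher in 4 of 5 periodontitis pups at 7 weeks than in all controls. At 2 weeks it was lower in most periodontitis pups. These contrasts chose the list, so the values are given as a description with no test. Cfd encodes adipsin, the serine protease also called complement factor D, which cuts factor B in the alternative complement pathway. At 7 weeks Cfd was at 14.8, 10.4, 9.49, 39.4 and 0.174 CPM in periodontitis pups, against 1.09, 0.588, 0.492, 0.389 and 0.845 CPM in control pups. The first 4 periodontitis libraries lay above all control libraries and library 5 lay below all of them, so the groups overlapped. At 2 weeks Cfd was at 0.206, 0.192, 0.142, 0.358 and 0.447 CPM in periodontitis pups, against 1.96, 1.52, 3.07, 3.98 and 0.402 CPM in control pups. Here 4 control libraries lay above all periodontitis libraries, and library 5 of the controls lay among them. The log2 fold change between dams was 4.42 ± 0.81 at 7 weeks and -3.05 ± 0.79 at 2 weeks (SE, 5 against 5 libraries), a difference of 7.47 ± 1.12. Without both of the libraries that stood apart these were 4.74 ± 0.47, -3.28 ± 0.47 and 8.02 ± 0.66.

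Retn encodes resistin, a hormone that mouse adipocytes secrete. At 7 weeks Retn was at 1.02, 1.64, 1.11, 3.61 and 0.0289 CPM in periodontitis pups, against 0.0995, 0.0981, 0, 0.0389 and 0.0805 CPM in control pups. Again libraries 1 to 4 lay above all controls, while library 5 lay within their range. At 2 weeks Retn was at 0.0561, 0.0426, 0.0406, 0 and 0.0894 CPM in periodontitis pups, against 0.310, 0.276, 0.227, 0.374 and 0.161 CPM in control pups. All 5 periodontitis libraries lay below all 5 control libraries. Between dams the log2 fold change of Retn was 4.48 ± 0.82 at 7 weeks and -2.57 ± 0.80 at 2 weeks, and 4.81 ± 0.57 and -2.67 ± 0.58 without the 2 libraries that stood apart. The counts behind Retn were few, with sums of 149 in 7-week periodontitis pups and 8 in 7-week control pups, and of 11 in 2-week periodontitis pups and 57 in 2-week control pups.

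Adipoq encodes adiponectin, the most abundant hormone of adipocytes. At 7 weeks Adipoq was at 2.00, 1.48, 1.52, 6.04 and 0 CPM in periodontitis pups, against 0.133, 0, 0.0984, 0.0389 and 0.121 CPM in control pups. Library 4 was again the highest and library 5 held no count. At 2 weeks Adipoq was at 0.131, 0.0426, 0.0812, 0.0682 and 0.358 CPM in periodontitis pups, against 0.697, 0.230, 0.478, 1.14 and 0.161 CPM in control pups. The groups overlapped through library 5 of the periodontitis pups, which lay above control libraries 2 and 5. Between dams the log2 fold change of Adipoq was 4.66 ± 0.97 at 7 weeks and -2.06 ± 0.84 at 2 weeks, and without these 2 libraries 4.99 ± 0.69 and -2.24 ± 0.60.

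Hp encodes haptoglobin, a plasma protein that binds free hemoglobin and is made mainly by the liver and also by white fat. At 7 weeks Hp was at 2.20, 0.819, 0.485, 4.36 and 0.202 CPM in periodontitis pups, against 0.166, 0.147, 0.164, 0 and 0.241 CPM in control pups. At 2 weeks Hp was at 0.187, 0.107, 0.122, 0.0512 and 0.201 CPM in periodontitis pups, against 0.407, 0.391, 0.523, 0.682 and 0.0805 CPM in control pups. Libraries 1 to 4 of the higher group lay above all libraries of the lower one at each age, and the groups overlapped only through library 5 of the 7-week periodontitis pups and library 5 of the 2-week control pups. For Hp the log2 fold change was 3.42 ± 0.74 at 7 weeks and -1.71 ± 0.69 at 2 weeks, and 3.72 ± 0.62 and -1.90 ± 0.58 without the same 2 libraries. The sum of 7 liver markers did not share this order: it was 2.87 to 7.90 CPM in periodontitis pups and 4.08 to 6.33 CPM in control pups at 7 weeks, and 39.7 to 186 CPM in periodontitis pups and 16.05 to 43.2 CPM in control pups at 2 weeks. Most of that sum was Ttr and Serpina1a at 2 weeks, and Apoa2 and Ttr at 7 weeks. Alb was at most 0.463 CPM in any library, and Fga, Fgb and Ahsg had no counts at 7 weeks, so the sum rests on few of the markers.

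**Figure D1:**
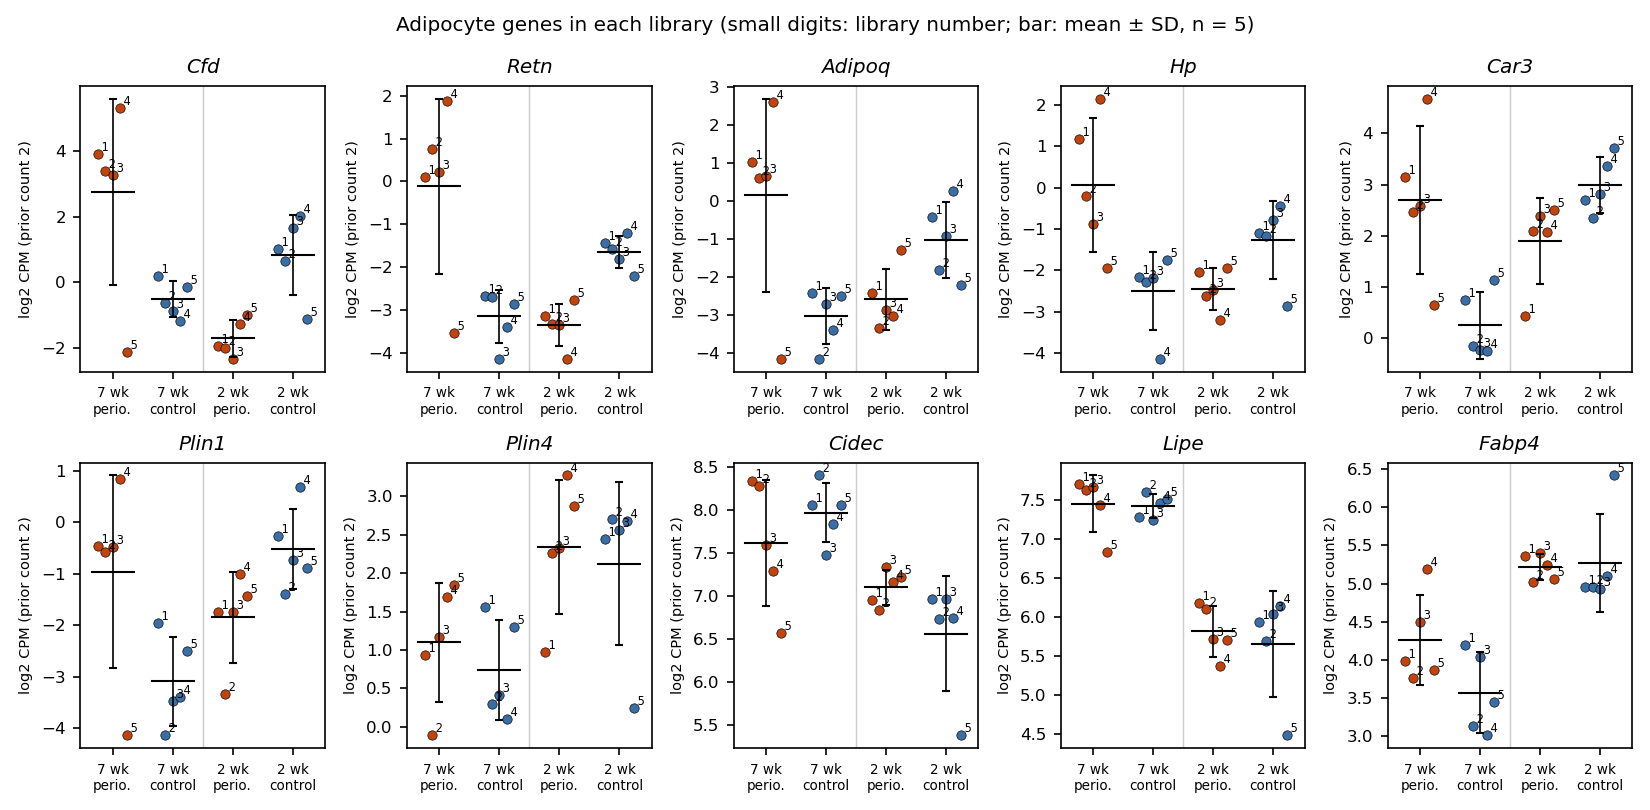
Each panel plots 1 of the 10 adipocyte genes as log2 CPM with a prior count of 2, with 1 point per library, the library number beside it, periodontitis pups in red, control pups in blue, and the mean ± SD of 5 libraries as a bar. In the panels of Cfd, Retn, Adipoq and Hp, libraries 1 to 4 of the 7-week periodontitis pups lie above all 7-week control pups and library 5 lies within or below their range.

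Of the droplet protein genes, Plin1 followed the hormone genes, and Plin4 and Cidec did not. Plin1 encodes perilipin 1, which coats the adipocyte droplet and holds lipases off it until the cell is stimulated. At 7 weeks Plin1 was at 0.668, 0.614, 0.658, 1.74 and 0 CPM in periodontitis pups, against 0.199, 0, 0.0328, 0.0389 and 0.121 CPM in control pups. At 2 weeks Plin1 was at 0.243, 0.0426, 0.244, 0.443 and 0.313 CPM in periodontitis pups, against 0.775, 0.322, 0.546, 1.54 and 0.483 CPM in control pups. The pattern was that of Adipoq, and 1 periodontitis library (number 4) lay above 1 control library (number 2) at 2 weeks. For Plin1 the log2 fold change was 3.05 ± 0.87 at 7 weeks and -1.52 ± 0.69 at 2 weeks, and without the 2 libraries 3.39 ± 0.69 and -1.61 ± 0.54.

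Plin4 encodes perilipin 4, which covers small and newly formed droplets. At 7 weeks Plin4 was at 1.85, 0.870, 2.18, 3.18 and 3.53 CPM in periodontitis pups, against 2.89, 1.18, 1.28, 1.01 and 2.41 CPM in control pups. At 2 weeks Plin4 was at 1.91, 4.75, 4.95, 9.60 and 7.29 CPM in periodontitis pups, against 5.38, 6.44, 5.84, 6.36 and 1.13 CPM in control pups. The groups overlapped widely at both ages, with log2 fold changes of 0.40 ± 0.47 at 7 weeks and 0.16 ± 0.44 at 2 weeks. Without the 2 libraries they were 0.19 ± 0.43 and -0.07 ± 0.38, so the sign at 2 weeks rested on them. Of its exonic bases 0.29% are shared with Hdgfl2 on the other strand.

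Cidec encodes a CIDE protein, also named Fsp27, through which lipid passes from small droplets to large ones. At 7 weeks Cidec was at 323, 312, 193, 157 and 94.7 CPM in periodontitis pups, against 268, 339, 178, 229 and 267 CPM in control pups. At 2 weeks Cidec was at 124, 114, 162, 143 and 150 CPM in periodontitis pups, against 125, 106, 125, 107 and 41.5 CPM in control pups. The 2 libraries numbered 5 were the lowest of their age, and the log2 fold changes were -0.25 ± 0.30 at 7 weeks and 0.45 ± 0.30 at 2 weeks. Without these 2 libraries they were -0.05 ± 0.20 and 0.25 ± 0.20.

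Lipe, which encodes hormone-sensitive lipase, an enzyme that splits diacylglycerol during lipolysis, had fold changes between dams close to 0. At 7 weeks Lipe was at 208, 198, 202, 173 and 114 CPM in periodontitis pups, against 156, 194, 152, 175 and 183 CPM in control pups. At 2 weeks Lipe was at 72.6, 68.5, 52.8, 41.4 and 52.4 CPM in periodontitis pups, against 61.0, 51.8, 65.8, 70.6 and 22.4 CPM in control pups. Both ages showed overlap, with log2 fold changes of 0.06 ± 0.24 at 7 weeks and 0.08 ± 0.24 at 2 weeks, and of 0.19 ± 0.14 and -0.12 ± 0.14 without the 2 libraries. An antisense gene, 4732471J01Rik, shares 918 bases with it, 15.6% of its exonic length, and held 74 counts over all libraries against 70307 for Lipe. Whether counting used the strand is not given in the sources used here.

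Fabp4 encodes the fatty acid carrier of adipocytes, which macrophages and capillary endothelium also make. At 7 weeks Fabp4 was at 15.8, 13.6, 22.6, 36.6 and 14.6 CPM in periodontitis pups, against 18.2, 8.73, 16.4, 8.02 and 10.9 CPM in control pups. At 2 weeks Fabp4 was at 41.1, 32.4, 42.1, 37.8 and 33.4 CPM in periodontitis pups, against 30.9, 31.1, 30.4, 34.2 and 85.2 CPM in control pups. The log2 fold change was 0.72 ± 0.32 at 7 weeks and -0.18 ± 0.32 at 2 weeks. It was 0.82 ± 0.26 at 7 weeks and turned to 0.24 ± 0.25 at 2 weeks without the 2 libraries that stood apart, since library 5 of the 2-week controls held the highest Fabp4 of all.

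Car3 encodes carbonic anhydrase 3, which is abundant in fat and also in slow skeletal muscle. At 7 weeks Car3 was at 8.77, 5.47, 5.89, 25.5 and 1.504 CPM in periodontitis pups, against 1.63, 0.834, 0.787, 0.778 and 2.13 CPM in control pups. At 2 weeks Car3 was at 1.29, 4.18, 5.17, 4.13 and 5.63 CPM in periodontitis pups, against 6.47, 4.99, 7.00, 10.3 and 13.04 CPM in control pups. Libraries 1 to 4 lay above all controls at 7 weeks and library 5 lay within their range. At 2 weeks periodontitis libraries 3 and 5 lay above control library 2. The log2 fold change was 2.92 ± 0.58 at 7 weeks and -1.02 ± 0.53 at 2 weeks, and without the 2 libraries 3.20 ± 0.50 and -0.82 ± 0.45. The sum of 5 skeletal muscle markers ran from 17.9 to 65.2 CPM in periodontitis pups and from 21.3 to 53.0 CPM in control pups at 7 weeks, and Myh4 was at 0 in every library. The list was not made for slow muscle, whose part in the Car3 values was not tested.

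Seen over the list, the log2 fold change between dams was positive for 9 of 10 genes at 7 weeks, with a median of 2.98 against 0.02 over all 17464 genes tested. It was negative for 7 of 10 at 2 weeks, with a median of -1.27 against 0.02 over all genes. The groups did not overlap for 0 of 10 genes at 7 weeks, where 0.246% of all genes were higher and 0.281% lower without overlap. At 2 weeks they did not overlap for Retn alone, which was lower, where 3.71% of all genes were higher and 3.54% lower without overlap. Nothing is read from these counts, because the same contrasts chose the list. All 10 genes passed the filter on low counts, but Retn and Hp did so only through 4 libraries each of the 7-week periodontitis and 2-week control pups. Adipoq passed through the same number of libraries and 1 further library of the 2-week periodontitis pups. Without library 4 of the 7-week periodontitis pups, the highest for Cfd, Retn, Adipoq, Hp, Plin1, Car3 and Fabp4 at that age, the 7-week log2 fold change of Cfd was 3.66 and that of Adipoq 3.86. This library also had the fewest counts of its group, 21.7 M, and the highest mitochondrial share of the group, 9.15%.

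**Figure D2:**
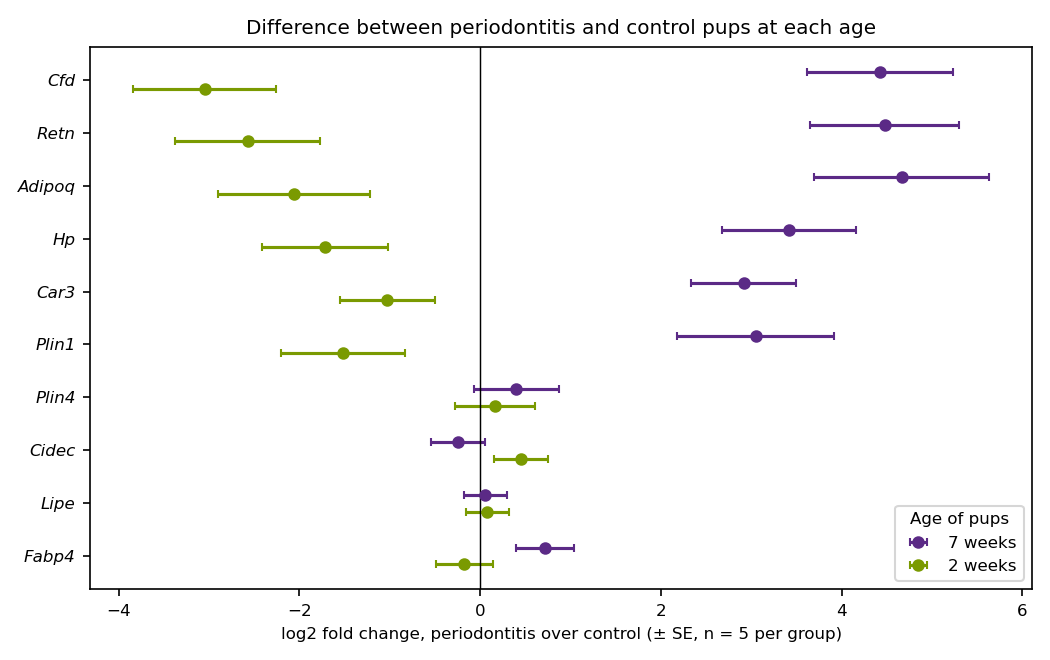
The points are log2 fold changes of periodontitis over control pups for each of the 10 adipocyte genes, with 7 weeks in purple above 2 weeks in green, and bars of ± SE. Cfd, Retn, Adipoq, Hp, Car3 and Plin1 lie right of 0 at 7 weeks and left of 0 at 2 weeks, while Plin4, Cidec, Lipe and Fabp4 lie within 1 of 0 at both ages.

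**Figure D3:**
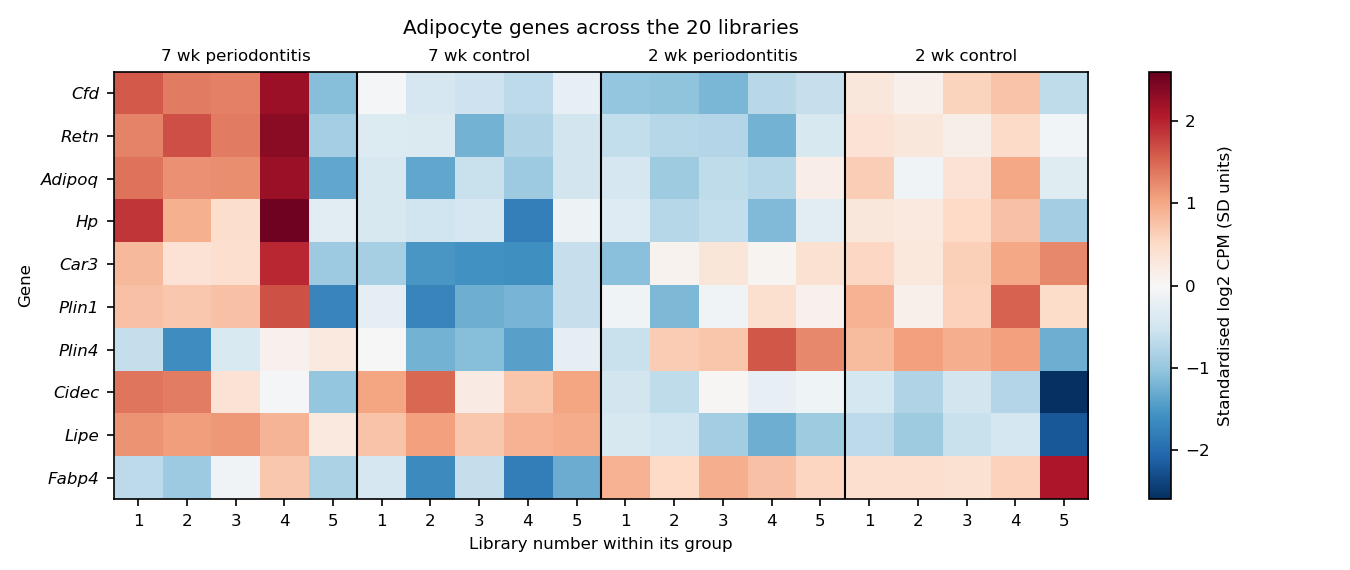
Each row is 1 adipocyte gene and each column 1 of the 20 libraries, coloured by the log2 CPM standardised over all libraries (SD units), red above and blue below the gene's mean. The upper 6 rows share a red block in libraries 1 to 4 of the 7-week periodontitis pups, and column 5 of that group and of the 2-week control pups differs from its neighbours.

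The comparison of 7 with 2 weeks, averaged over both kinds of dam, was not itself used in choosing the genes. Among the 4 genes with a low r with Adipoq over all libraries, Cidec and Lipe rose and Plin4 and Fabp4 fell. Of all genes tested, 34% rose and 40.6% fell in the same comparison at an adjusted p under 0.05, so calls were common at large. By edgeR, with p adjusted over all genes, the log2 fold change of Lipe was 1.65 ± 0.17 (SE; adjusted p = 5.77e-08). Cidec rose by 0.99 ± 0.21 (edgeR adjusted p = 0.000311). Fabp4 changed by -1.31 ± 0.23 (edgeR adjusted p = 3.35e-05) and Plin4 by -1.41 ± 0.33 (edgeR adjusted p = 0.000621).

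For the other 6 genes the average joins values of opposite sign. Lipe differed between 7 and 2 weeks by a log2 fold change of 1.64 in periodontitis pups and 1.66 in control pups, and Plin4 by -1.29 in periodontitis pups and -1.53 in control pups. Cfd differed by 5.76 in periodontitis pups and by -1.71 in control pups, so its average describes neither. The same split was seen in Retn, with 4.92 in periodontitis pups and -2.13 in control pups, and in Adipoq, with 3.98 in periodontitis pups and -2.74 in control pups. Hp had 3.54 in periodontitis pups and -1.59 in control pups. Car3 had 1.20 in periodontitis pups and -2.75 in control pups, and Plin1 had 1.43 in periodontitis pups and -3.13 in control pups. Averages over dams were 2.03 ± 0.54 for Cfd, 1.40 ± 0.64 for Retn, 0.62 ± 0.69 for Adipoq, 0.97 ± 0.52 for Hp, -0.77 ± 0.38 for Car3 and -0.85 ± 0.56 for Plin1. By the edgeR test Cfd passed and the other 5 did not, but nothing is read from these calls. Cfd, Retn and Adipoq chose the list, and Retn and Hp passed the filter on low counts only through the groups where they were high. The 7-week periodontitis values that went into that choice also weigh on the average through their spread, with an SD of 14.7 CPM for Cfd in 7-week periodontitis pups and 0.286 CPM in 7-week control pups. Leaving out single libraries moved the calls of Retn, Hp and Car3. Retn and Hp passed without library 5 of the 7-week periodontitis pups. Retn passed also without library 3 of the 7-week controls or library 5 of the 2-week periodontitis pups, and Hp without library 4 of the 7-week controls. Car3 passed without library 4 of the 7-week periodontitis pups (-1.17, edgeR adjusted p = 0.00316), library 5 of the 7-week controls or library 1 of the 2-week periodontitis pups.

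**Figure D4:**
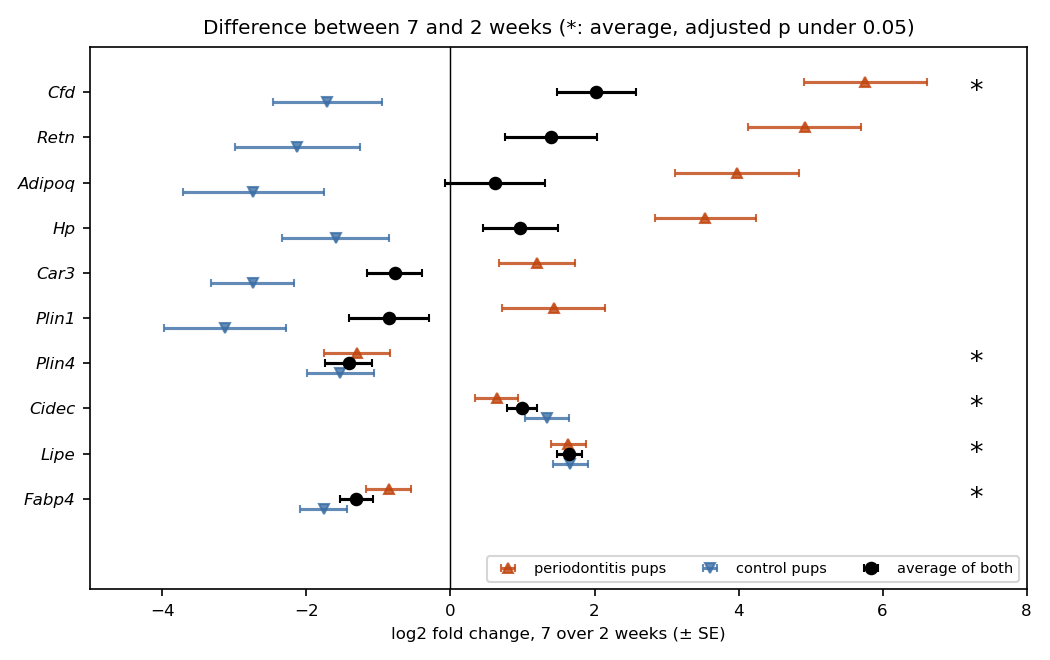
The points are log2 fold changes of 7 over 2 weeks for each of the 10 adipocyte genes in periodontitis pups (red), in control pups (blue) and averaged over both (black), with bars of ± SE. Stars mark the 5 genes whose average had an edgeR adjusted p under 0.05, and nothing is read from that of Cfd, which chose the list; the red and blue points lie on opposite sides of 0 for the upper 6 genes and on the same side for the lower 4.

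Markers of other cell types also differed between the ages, and not all in 1 direction. How many of all genes separate the ages without overlap was not counted. By edgeR 34% of all genes rose and 40.6% fell, so nothing is read from a lack of overlap between ages below. Of 5 intestinal epithelium markers, Fabp2, Vil1 and Cdh1 were higher at 7 weeks without overlap, while Epcam and Cdx2 overlapped. Fabp2, the fatty acid carrier of enterocytes, was at 3686 to 10147 CPM in the 7-week libraries, against 1127 to 2510 CPM in the 2-week libraries. Cdx2, a transcription factor of the gut lining, was at 127 to 194 CPM in the 7-week libraries, against 31.0 CPM in library 5 of the 2-week controls and 139 to 168 CPM in the other 2-week libraries. Lipe was higher in all 10 libraries at 7 weeks than in all 10 at 2 weeks. Cidec overlapped between the ages, through libraries 4 and 5 of the 7-week periodontitis pups.

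Of 6 blood endothelium markers, Pecam1, Cdh5, Kdr, Cd300lg and Emcn were lower at 7 weeks without overlap. Pecam1, an adhesion protein of vessel walls, was at 6.23 to 23.5 CPM in the 7-week libraries, against 46.5 to 65.6 CPM in the 2-week libraries. Rbp7, a retinol carrier, went the other way, with 7.32 to 20.2 CPM in the 7-week libraries, against 0.581 to 2.38 CPM in the 2-week libraries. Fabp4 overlapped between the ages through library 4 of the 7-week periodontitis pups alone. The part of these cell types in the age differences was not tested.

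Per length of exons the 10 genes covered a wide range, and those expressed most were not the hormone genes. Cidec had the highest level in each group, with 116 ± 53.5 CPM per kilobase (kb) in 7-week periodontitis pups and 138 ± 31.8 in 7-week control pups, and 74.5 ± 10.4 in 2-week periodontitis pups and 54.5 ± 18.6 in 2-week control pups (SD, n = 5 each). Lipe came next at 7 weeks, with 30.4 ± 6.61 CPM per kb in periodontitis pups and 29.2 ± 3.00 in control pups. In 7-week periodontitis pups Cfd stood above Fabp4, with means of 16.1 ± 15.96 and 4.60 ± 2.14 CPM per kb, a gap within the spread of Cfd. In 7-week control pups the order was Fabp4 at 2.78 ± 1.03 and Cfd at 0.740 ± 0.310 CPM per kb. At 2 weeks Lipe and Fabp4 lay within each other's spread, at 9.78 ± 2.18 and 8.33 ± 0.971 CPM per kb in periodontitis pups and 9.23 ± 3.26 and 9.44 ± 5.35 in control pups. The lowest place was held by Plin1 in 3 groups, with 0.159 ± 0.135 CPM per kb in 7-week periodontitis pups, 0.0168 ± 0.0174 in 7-week control pups and 0.158 ± 0.103 in 2-week control pups. In 2-week periodontitis pups Retn was lowest, at 0.0290 ± 0.0204 CPM per kb, beside Plin1 at 0.0553 ± 0.0312.

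Across the 20 libraries the log2 CPM of Cfd, Retn, Adipoq, Hp, Plin1 and Car3 went up and down together. These 6 were set apart after the values were seen, so a higher r within them than across is partly built into the split. The 15 pairs among these 6 had Pearson r between 0.60 and 0.94, with a median of 0.85. Cfd with Retn had the highest r, 0.94, and Cfd with Car3 the lowest, 0.60. After removal of the 4 group means the 15 pairs still had r between 0.54 and 0.93, with a median of 0.76. The 24 pairs of 1 of these 6 with 1 of the other 4 had r between -0.36 and 0.64, with a median of 0.15. After removal of the group means these 24 had r between -0.07 and 0.65, with a median of 0.28. The highest were Fabp4 with Car3 at 0.64 before that removal and Cfd with Cidec at 0.65 after it. Both lie above the lowest pair among the 6, so the pairs within and across overlapped. Among the other 4, Cidec and Lipe had an r of 0.83, while Fabp4 had -0.78 with Cidec and -0.83 with Lipe. The libraries share their group, their depth and library 5 of 2 groups, so these are descriptions over 20 libraries and carry no p.

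**Figure D5:**
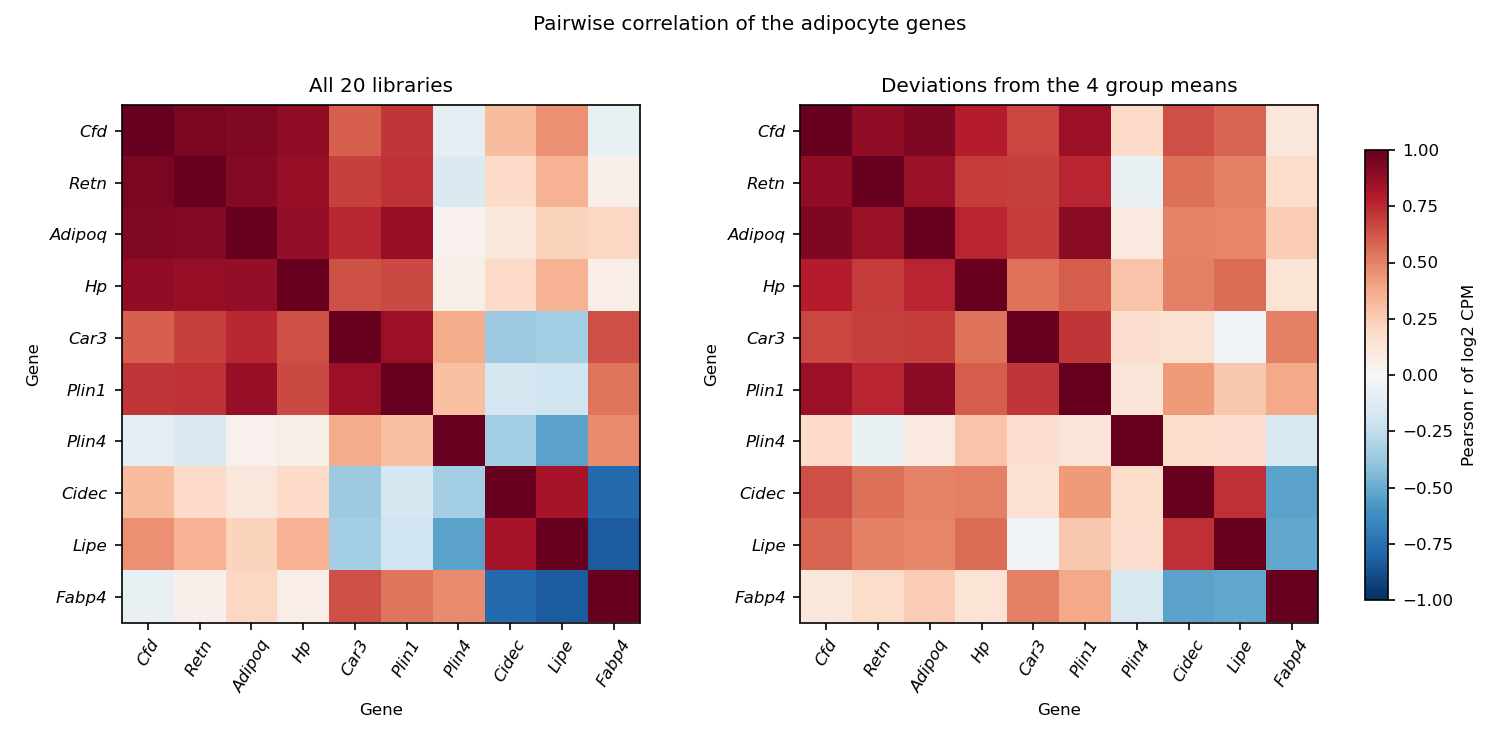
The 2 panels show Pearson r of log2 CPM for each pair of the 10 adipocyte genes, over all 20 libraries on the left and over deviations from the 4 group means on the right (red positive, blue negative). The upper left block of Cfd, Retn, Adipoq, Hp, Car3 and Plin1 has r of 0.60 to 0.94 on the left and 0.54 to 0.93 on the right. This block was set apart after the values were seen.

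Ratios of counts show how the proportions between these genes compared where their levels were high. They were taken where the second gene had at least 10 counts. Cfd counts were 6.23 to 7.37 times those of Adipoq in libraries 1 to 4 of the 7-week periodontitis pups, against 1.25 times in the 1 library of 2-week periodontitis pups with a ratio and 2.81 to 6.60 times in libraries 1 to 4 of the 2-week control pups. Cfd to Retn was 6.34 to 14.46 in the same 7-week periodontitis libraries and 5.5 to 13.5 in the same 2-week control libraries. These ratios to Adipoq and Retn overlapped between the high groups, and those to Hp, Plin1 and, apart from 1 library, Car3 did not. Cfd to Hp was 6.71 to 19.6 in 7-week periodontitis libraries 1 to 4, against 3.88 to 5.87 in 2-week control libraries 1 to 4. Cfd to Plin1 was 14.4 to 22.6 in 7-week periodontitis libraries, against 0.583 to 1.43 in 4 of the 2-week periodontitis libraries and 2.53 to 5.63 in 4 of the 2-week control libraries. Cfd to Car3 was 1.55 to 1.90 in libraries 1 to 4 of the 7-week periodontitis pups and 0.115 in library 5, against 0.396 to 0.706 in 7-week control pups, 0.0275 to 0.159 in 2-week periodontitis pups and 0.0309 to 0.438 in 2-week control pups. The 7-week control pups had too few counts of Adipoq, Retn, Hp and Plin1 for a ratio. Ratios from small counts carry a large counting error.

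Likeness was ranked over genes other than predicted loci whose log2 CPM averaged 0 or more, a floor that leaves out genes as low as Retn, Adipoq, Plin1 and Hp. The 10 ranked genes with the profile most like the mean of the 10 over the 20 libraries were Thrsp (Pearson r 0.84), Duox2 (0.77), Mrtfb (0.72), Duoxa2 (0.70), Ddx5 (0.67), Fubp3 (0.65), Ankrd28 (0.65), Mtmr7 (0.63), Enpp7 (0.62) and Nipal1 (0.62). Thrsp encodes a nuclear protein tied to fatty acid synthesis. At 7 weeks Thrsp was at 4.13, 3.02, 2.01, 3.24 and 1.33 CPM in periodontitis pups, against 1.36, 0.588, 1.12, 0.584 and 0.805 CPM in control pups. At 2 weeks Thrsp ran from 1.19 to 1.57 CPM with a median of 1.23 CPM in periodontitis pups, against 0.805 to 2.46 CPM with a median of 2.23 CPM in control pups. Library 5 of the 7-week periodontitis pups was the lowest of its group and lay below control library 1. The ranking by r picks genes that share the pattern of the 10 in these same libraries. The order of groups and libraries in the genes named is therefore partly set by that choice. Duox2, an oxidase of the gut lining that makes hydrogen peroxide, was at 9.87, 37.8, 3.57, 39.0 and 0.463 CPM in 7-week periodontitis pups, against 3.05, 0.834, 1.84, 0.778 and 1.25 CPM in 7-week control pups. Its r with the mean of the 10 genes was 0.73 after removal of the group means, and that of Thrsp 0.69. Ranked by that second measure, none of the 10 genes most alike was among those just named; Wdr45b led with 0.85.

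Of 55 other genes of fat cell identity, lipid droplets, triglyceride and fatty acid synthesis, and the receptors or targets of the secreted proteins, 49 were tested. At 7 weeks 1 passed between dams, Scd1, which was higher in periodontitis pups, as were 0.0115% of all genes. At 2 weeks 0 of 49 passed by edgeR at an adjusted p under 0.05, with 3 at an unadjusted p under 0.05, and 1 passed by DESeq2 and 17 by limma-voom. Over all genes edgeR called 0.0172% higher and 0.0115% lower at 2 weeks. Of all 17464 genes DESeq2 called 599 and limma-voom 5170 at that age, so nothing is read from the 17 calls. Scd1 encodes the desaturase that makes monounsaturated fatty acids. Scd1 was at 10.8, 11.3, 38.0, 28.5 and 18.9 CPM in 7-week periodontitis pups, against 6.14, 5.98, 6.56, 4.32 and 5.84 CPM in 7-week control pups, with no overlap. At 2 weeks it was at 3.48, 4.37, 3.37, 4.04 and 3.89 CPM in periodontitis pups, against 5.60, 5.29, 4.66, 7.15 and 4.59 CPM in control pups, again with no overlap and in the opposite direction. Of all genes, 0.246% were higher without overlap at 7 weeks and 3.54% lower at 2 weeks. Unlike Adipoq, Scd1 was high in library 5 of the 7-week periodontitis pups.

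The log2 fold change of Scd1 was 1.90 ± 0.28 at 7 weeks (edgeR adjusted p = 0.0188) and -0.52 ± 0.27 at 2 weeks (edgeR adjusted p = 0.395). The difference between the ages was 2.41 ± 0.39 (edgeR adjusted p = 0.0238), where 0.0229% of all genes passed in the same direction. The 7-week call was lost when any 1 of the 5 control libraries of that age was left out. The call of the difference was lost without any 1 of these, of libraries 1, 3, 4 and 5 of the 2-week periodontitis pups, of libraries 1, 2 and 4 of the 2-week controls, and without library 4 of the 7-week periodontitis pups. Thrsp had 1.60 ± 0.34 at 7 weeks (edgeR adjusted p = 0.198) and passed without the 2 libraries that stood apart (1.78, edgeR adjusted p = 0.00716). Lpl encodes lipoprotein lipase, which frees fatty acids from circulating triglyceride for uptake. At 7 weeks Lpl was at 6.92, 8.85, 14.0, 34.5 and 8.82 CPM in periodontitis pups, against 6.63, 5.30, 5.58, 5.22 and 4.91 CPM in control pups. These did not overlap, library 4 was again the highest, and the log2 fold change of 1.39 ± 0.43 did not pass (edgeR adjusted p = 0.869).

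Other genes that mark fat cells were near the limit of detection or did not follow Adipoq. Adig, a gene of adipocyte differentiation, had 5, 15, 8, 23 and 0 counts in 7-week periodontitis pups, against 2, 3, 0, 0 and 0 in 7-week control pups. At 2 weeks Adig had 0, 0, 0, 0 and 2 counts in periodontitis pups, against 5, 1, 3, 10 and 0 in control pups. The direction between dams was that of Adipoq at both ages, in a gene too low to be tested. Within groups the order of the libraries was not the same as for Adipoq. Lep, which encodes leptin, had 3 counts in all in 7-week periodontitis pups and 0 in 7-week control pups, and 0 in 2-week periodontitis pups and 12 in 2-week control pups. Pparg, the nuclear receptor that directs fat cell formation, averaged 25.7 ± 5.26 CPM in periodontitis pups and 29.2 ± 1.98 CPM in control pups at 7 weeks (SD, n = 5 each). At 2 weeks Pparg averaged 22.2 ± 3.77 CPM in periodontitis pups and 34.1 ± 18.3 CPM in control pups (SD, n = 5 each). Cebpa, its partner transcription factor, averaged 58.8 ± 9.10 CPM in periodontitis pups and 68.5 ± 11.9 CPM in control pups at 7 weeks (SD, n = 5 each). The 2-week averages of Cebpa were 69.9 ± 10.8 CPM in periodontitis pups and 46.1 ± 24.6 CPM in control pups, where library 5 had 2.90 CPM (SD, n = 5 each). Neither passed between dams at either age by edgeR (adjusted p of 0.235 to 1). By limma-voom both passed at 2 weeks, Pparg with a log2 fold change of -0.34 (adjusted p = 0.00647) and Cebpa with 0.35 (adjusted p = 0.0361). At that age limma-voom called 5170 of all 17464 genes, so such calls were common.

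With age 19 of the 49 rose and 21 fell, beside 34% and 40.6% of all genes, so these counts are near the background and the values that follow are a description. Of 9 genes of fat cell identity, 2 rose, Aqp7 (log2 fold change 2.19) and Nrg4 (1.21), and 4 fell, among them Aoc3 (-2.57), an amine oxidase, and Trarg1 (-1.38), which takes part in the traffic of the insulin-responsive glucose transporter. Of 10 lipid droplet and lipolysis genes, 5 rose and 4 fell. Cideb (1.42), a CIDE protein of liver and gut, and Pnpla2 (1.07), the lipase that acts before Lipe, rose, while Hilpda (-1.78) and Mgll (-1.53), the lipase that acts after it, fell. Of 11 uptake and triglyceride synthesis genes, 5 rose, among them Dgat1 (1.95) and Agpat2 (1.77), and 5 fell, among them Gpihbp1 (-3.02), the anchor of Lpl on capillaries, and Lpin1 (-1.87). Of 8 fatty acid synthesis genes, 3 rose and 3 fell, with Scd1 (1.28) and Me1 (1.08) up and Acly (-0.96) and Acaca (-1.09) down. Of 11 receptors and targets, 4 rose and 5 fell. Adipor2 (1.26), a receptor of adiponectin, was among those that rose, and Cdh13 (-2.06), which binds adiponectin, Tlr4 (-1.91) and Lepr (-1.26), the leptin receptor, were among those that fell. Cfb, the substrate of adipsin, was among those that rose (0.64 ± 0.18, edgeR adjusted p = 0.00270).

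Markers of tissues that could bring fat cells with them, or be mistaken for them, were compared between dams where the 6 genes differed. Brown adipocytes are set apart by Ucp1, which had 0 counts in all 10 libraries at 7 weeks, and 1 count in periodontitis pups and 4 in control pups at 2 weeks. Elovl3, Otop1 and Zic1 had at most 2 counts in any library. The other 4 markers of that list were measured, and Cox7a1 and Ppargc1a, which other tissues rich in mitochondria make too, held nearly all of its sum. Cox7a1 was at 48.7 to 126 CPM in periodontitis pups and 74.3 to 93.6 CPM in control pups at 7 weeks, and Ppargc1a at 41.6 to 111 CPM in periodontitis pups and 35.5 to 64.1 CPM in control pups. Dio2 and Cox8b stayed below 0.5 CPM at 7 weeks. The whole list summed to 93.9 to 225.5 CPM in periodontitis pups and 113.5 to 153.4 CPM in control pups at 7 weeks, and to 15.1 to 37.4 CPM in periodontitis pups and 35.3 to 91.9 CPM in control pups at 2 weeks. The summed level of 5 mesothelium markers, the cell layer that covers gut and mesentery, was 3.56 to 10.1 CPM in periodontitis pups and 3.43 to 12.01 CPM in control pups at 7 weeks. It was 2.22 to 11.1 CPM in periodontitis pups and 3.86 to 4.92 CPM in control pups at 2 weeks, so the groups overlapped at both ages. The 6 fibroblast markers summed to 458 to 840 CPM in periodontitis pups and 497 to 660 CPM in control pups at 7 weeks, but most of this was Dpp4, a peptidase that the enterocyte brush border also carries, with 294 to 768 CPM in periodontitis pups and 427 to 576 CPM in control pups. Pdgfra, a receptor of fibroblasts, was at 6.34 to 22.1 CPM in periodontitis pups and 6.56 to 14.1 CPM in control pups. Col1a1, a collagen chain, was at 10.2 to 89.5 CPM in periodontitis pups and 14.2 to 26.4 CPM in control pups. Both upper ends were library 5 of the 7-week periodontitis pups. Libraries 1 to 4 of that group had 6.34 to 8.97 CPM of Pdgfra and 10.2 to 21.4 CPM of Col1a1. In the same group Dcn, Lum and Pi16 of this list were highest in library 4, and Dpp4 in library 1. Neutrophil markers, among them Retnlg, a relative of Retn, summed to 0.256 to 1.49 CPM in periodontitis pups and 0.584 to 2.45 CPM in control pups at 7 weeks. How much mesenteric fat was on each piece of intestine is not given in the labels, and its part in the differences was not tested.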

How the data were processed

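RNA was extracted from small intestine with a column kit and polyA-enriched libraries were prepared, per the labels' protocols. Per the submitters' processing notes, the tools were cutadapt 4.8, FastQC 0.11.8, STAR 2.7.8a and RSEM 1.3.3, and the builds listed are GRCh38 and GRCm38; annotation release and strandedness are not given in the sources used here. The deposited values are the authors' RSEM expected counts for each gene; they were already whole, so rounding changed 0 of them. Of 55491 rows, 4 name no gene and hold 0 counts. Groups and library numbers come from the labels.

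In R 4.3.3 with edgeR 4.0.16, filterByExpr over the 4 groups kept 17464 genes, which hold all but 0.0838% or less of the counts of each library. After TMM scaling, a quasi-likelihood model with robust estimation and 4 group means was fitted over the 20 libraries (16 residual degrees of freedom), with Benjamini-Hochberg adjustment over all genes and a threshold of 0.05. Standard errors were worked back from the F statistic and the size of the log2 fold change. Log2 CPM use a prior count of 2. Gene positions and exon lengths are from GENCODE M21 on GRCm38, which held all 10 genes; promoters are from RefSeq on GRCm38.p6. A count of 0 allows up to 3 counts, or 0.0512 to 0.241 CPM, for counting error only.

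The genes, the pathway and marker lists and the tests were chosen with earlier results of these data known. Differences between dams chose the genes and were not tested for them. The age comparison averaged over dams was not used in the choice, but it uses the same libraries and is not independent of it where the spread differs between groups. All 10 genes are named. Up to 4 called genes with the smallest p are named per pathway list, and the 10 genes of highest r as most alike; Adig, Lep, Lpl, Pparg, Cebpa and Cfb are named besides, after their values were seen. Of the 5 lymphatic markers 4 were found, and markers of the lymphatics, macrophages, B cells, pancreas and smooth muscle are given in the closing section. Other settings tried were limma-voom (limma 3.58.1) with quality weights, DESeq2 1.42.0, edgeR with the size factors of DESeq2, other filters, estimation that is not robust, a block for the replicate number, and leaving out libraries. The procedure was tested on simulated data. Library pairs of each group differed by more than sampling noise.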

Additional observations from a re-analysis of the deposited data

Results flagged for a closer look

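In 8 of the 40 sets of 5 libraries (10 adipocyte genes in 4 groups) the highest or lowest library lay far from the rest. The measure is the gap to the nearest library divided by the range of the group, on the log2 CPM scale, with a critical value of 0.71 for 5 libraries; chance alone gives about 1 in 20 such sets.

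Library 5 of the 7-week periodontitis pups was far below the rest for Cfd (0.724), the adipsin gene, and for Plin1 (0.714), the perilipin of adipocyte droplets. Library 5 of the 2-week control pups was far below the rest for Plin4 (0.896), Cidec (0.853) and Lipe (0.730), and far above for Fabp4 (0.886). Its mitochondrial share of 29.4% and its total of 14.9 mega counts move with these values, and their part was not tested. Library 1 of the 2-week periodontitis pups was far below the rest for Car3 (0.787). Library 4 of the 7-week control pups was far below the rest for Hp (0.771), where it held 0 counts, which allows up to 0.117 CPM.

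The dam effect on Scd1, the desaturase, differed between the ages by a test of the difference itself, with a log2 value of 2.41 (7-week minus 2-week effect; edgeR adjusted p = 0.0238). It was higher in 5 of 5 periodontitis pups than in all control pups at 7 weeks, and lower in 5 of 5 at 2 weeks.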

How the results depend on the processing

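The direction of each of the 5 age calls (Cfd, Cidec, Lipe, Plin4, Fabp4) and its side of the threshold held in every alternative run. Without the 2 libraries that stood apart 5 genes rose with age, and leaving out 1 library at a time gave 3 to 5 that rose and 2 to 3 that fell. Nothing is read from the calls of Cfd and Retn, which chose the list, or of Hp, for the reasons given with the age comparison. The average of Car3 was called lower by limma-voom (adjusted p = 0.00663). Its log2 fold change with age was 1.20 in periodontitis pups and -2.75 in control pups by edgeR, so that average describes neither. The median log2 fold change between dams was 2.30 to 3.30 at 7 weeks, -1.44 to -0.99 at 2 weeks and 3.57 to 4.62 for the difference when 1 library was left out. With a filter of CPM above 1 in 5 libraries, which leaves 7 of the 10 genes, the medians were 0.73, -0.20 and 0.93. Fabp4 at 2 weeks was 0.32 by limma-voom, against -0.18 by edgeR.

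Of the 49 pathway genes, DESeq2 called 2 at 7 weeks, 1 at 2 weeks and 3 for the difference; limma-voom called 2, 17 and 6. Without both libraries that stood apart edgeR called 2, 1 and 3, and leaving out 1 library gave 0 to 2 at 7 weeks, 0 to 1 at 2 weeks and 0 to 2 for the difference. With age, leaving out 1 library gave 19 to 20 that rose and 21 to 22 that fell. Over all genes the calls between dams at 2 weeks were 5 by edgeR, 599 by DESeq2 and 5170 by limma-voom; at 7 weeks they were 2, 25 and 10, and for the difference 4, 65 and 1166. The cause was not tested.

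The labels do not say whether equal numbers pair the libraries. Of 30 pairs of same-numbered libraries, 4 had a correlation of deviations above 0.1 (range -0.40 to 0.29). Pairs with different numbers were not compared, so these values cannot decide whether the numbers pair them. With the replicate number as a block 0 pathway genes passed at 7 weeks and 0 for the difference, 0 of all genes passed between dams, and 12848 passed for age against 13027. Depth limits Retn, Adipoq, Plin1 and Hp most, with sums of 8 to 11 counts of the first 3 in 7-week control pups.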

Other observations

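The other marker lists were summed per library without a test. B cell markers summed to 0.921 to 10.5 CPM in periodontitis pups and 1.45 to 41.1 CPM in control pups at 7 weeks, and to 5.16 to 13.7 CPM in periodontitis pups and 9.38 to 19.2 CPM in control pups at 2 weeks. Macrophage markers, cells that also make Fabp4, summed to 31.3 to 86.3 CPM in periodontitis pups and 45.6 to 98.2 CPM in control pups at 7 weeks. At 2 weeks the macrophage sum was 144 to 183 CPM in periodontitis pups and 49.9 to 137 CPM in control pups, with no overlap. Most of it was Csf1r in most libraries, at 89.4 to 126 CPM in periodontitis pups and 16.8 to 83.0 CPM in control pups. Cd68 did not overlap either, while Adgre1, Mrc1, C1qa and also Fabp4 overlapped. Over all genes 3.71% were higher without overlap at 2 weeks. Lymphatic endothelium markers summed to 9.52 to 16.6 CPM in periodontitis pups and 9.66 to 16.2 CPM in control pups at 7 weeks, and to 34.1 to 40.3 CPM in periodontitis pups and 31.8 to 58.9 CPM in control pups at 2 weeks. Smooth muscle markers summed to 353 to 1074 CPM in periodontitis pups and 416 to 921 CPM in control pups at 7 weeks, and to 873 to 3053 CPM in periodontitis pups and 1436 to 1903 CPM in control pups at 2 weeks. Exocrine pancreas markers summed to 135 to 1354 CPM in periodontitis pups and 130 to 468 CPM in control pups at 2 weeks, and to 5.52 to 11.5 CPM in periodontitis pups and 5.74 to 10.2 CPM in control pups at 7 weeks.

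Plin2, the perilipin of droplets outside fat cells, lay higher without overlap in 2-week periodontitis pups, as did 3.71% of all genes. Plin2 was at 244 to 445 CPM there, against 76.5 to 220 CPM in 2-week control pups. Its log2 fold change of 1.07 ± 0.22 missed the threshold (edgeR adjusted p = 0.0541) and passed without the 2 libraries that stood apart (0.88, edgeR adjusted p = 0.0186). At 7 weeks Plin2 was at 117 to 154 CPM in periodontitis pups and 133 to 181 CPM in control pups. Plin2 was chosen after its values were seen; at 2 weeks its order between dams was the opposite of that of Plin1.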
